A study of Homo sapiens with 12 samples.

Results

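The 9 genes described here encode the 4 ID proteins (ID1, ID2, ID3 and ID4), the signal-carrying SMAD3, the inhibitory SMADs SMAD6 and SMAD7, the SMAD corepressor SKIL and the secreted matrix protein TGFBI. They were taken by symbol from the deposited table of 58676 genes, by a rule that names genes and sets no threshold, though earlier results of these data were known when the list was made. Each symbol matched 1 row, and all 9 had a mean of at least 1 FPKM (fragments per kilobase, a count divided by gene length and by assigned reads), the level above which genes were tested. ID4 passed narrowly, with a mean of 1.06 FPKM over the 12 libraries.

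The cells were A549, an established human lung carcinoma line of epithelial origin. A control line (labelled Control1) and 2 lines with NFE2L1 knocked out (NFE2L1 KO1 and NFE2L1 KO2) each received DMSO vehicle or 200 nM bortezomib, a proteasome inhibitor, for 4 h, and each of the 6 groups has 2 libraries. NFE2L1 encodes a transcription factor best known for inducing proteasome genes under proteasome inhibition. The labels do not say how the lines were made, whether each is 1 clone, or whether the 2 libraries of a group came from separate cultures, so p-values measure only the spread between these libraries.

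TGF-beta and BMP ligands bind pairs of serine/threonine kinase receptors, which phosphorylate receptor-regulated SMADs. SMAD2 and SMAD3 carry the TGF-beta and activin signal, SMAD1, SMAD5 and SMAD9 carry the BMP signal, and both sets bind SMAD4 and enter the nucleus. Pathway output includes its own brakes: SMAD6 and SMAD7 block receptors and SMAD activation, and SKIL (SnoN) holds SMAD target genes silent until it is degraded by the proteasome. ID1, ID2, ID3 and ID4 are classical BMP targets whose proteins bind E-proteins and keep them off DNA, and TGFBI is a classical TGF-beta target. Several SMADs, SKIL and ID proteins are removed by the ubiquitin-proteasome system, while the values here are RNA levels only.

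The libraries held 13211608 to 23819258 assigned reads. Titles of the KO libraries end in R1 or R2, and each control group has 1 library ending in R2 and 1 with no number. The mitochondrial share of reads was 12.3% to 19.3% in the 6 R2 libraries and 5.44% to 6.80% in the other 6. NFE2L1 was at 72.7 to 189 FPKM in the control line, 8.45 to 35.8 in KO1 and 18.6 to 50.8 in KO2, so the knockout libraries stood below the control libraries in each case. The 5 epithelial markers summed to 509 to 1801 FPKM, against 1.64 to 23.9 for 5 fibroblast markers and 0.0262 to 3.63 for 5 immune and endothelial markers. COL1A1 was the only fibroblast marker with a mean of at least 1 FPKM, and CD14 made up most of the last sum, with PTPRC at 0.0602 FPKM or lower.

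Promoter windows of the 250 bases upstream of a RefSeq start (GRCh38.p14) were searched on both strands for letters known from SMAD binding. These were the palindrome GTCTAGAC, the SMAD box CAGAC, whose other strand reads GTCTG, and the GC-rich element GGCGCC bound by BMP SMADs, with the ATF/CREB element TGACGTCA added. Of 35116 windows in the RefSeq table, 0.182% held GTCTAGAC, 38.0% CAGAC, 16.4% GGCGCC and 1.65% TGACGTCA. All 9 genes matched the table, SMAD3 with 5 windows, SMAD7 with 3 and the rest with 1. The windows of ID3 and ID2 are printed because these 2 genes moved in opposite directions, and that of SMAD6 because it was the only window of the 9 genes with the palindrome. That of SKIL is printed because it held the other 3 motifs. Each is read 5′ to 3′ on the gene's strand, with one motif in capitals (CAGAC in ID3, GTCTAGAC in SMAD6, TGACGTCA in SKIL) and none in ID2, which held no match.
ID3 promoter, chr1:23559502-23559751, minus strand: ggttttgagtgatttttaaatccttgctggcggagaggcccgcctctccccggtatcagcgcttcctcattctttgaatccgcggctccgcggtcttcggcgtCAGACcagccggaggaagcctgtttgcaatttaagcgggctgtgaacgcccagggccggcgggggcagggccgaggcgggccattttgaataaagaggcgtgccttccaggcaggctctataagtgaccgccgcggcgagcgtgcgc
ID2 promoter, chr2:8681806-8682055, plus strand: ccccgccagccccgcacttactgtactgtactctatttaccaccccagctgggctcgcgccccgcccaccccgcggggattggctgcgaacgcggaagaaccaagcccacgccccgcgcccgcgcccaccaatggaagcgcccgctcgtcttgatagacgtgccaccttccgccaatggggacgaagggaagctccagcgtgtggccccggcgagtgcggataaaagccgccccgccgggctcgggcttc
SMAD6 promoter, chr15:66701986-66702235, plus strand: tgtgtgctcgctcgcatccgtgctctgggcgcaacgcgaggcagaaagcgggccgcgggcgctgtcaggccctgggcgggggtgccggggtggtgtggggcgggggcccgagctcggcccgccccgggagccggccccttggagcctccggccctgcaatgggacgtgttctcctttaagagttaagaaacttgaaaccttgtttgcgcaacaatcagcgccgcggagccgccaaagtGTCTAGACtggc
SKIL promoter, chr3:170357465-170357714, plus strand: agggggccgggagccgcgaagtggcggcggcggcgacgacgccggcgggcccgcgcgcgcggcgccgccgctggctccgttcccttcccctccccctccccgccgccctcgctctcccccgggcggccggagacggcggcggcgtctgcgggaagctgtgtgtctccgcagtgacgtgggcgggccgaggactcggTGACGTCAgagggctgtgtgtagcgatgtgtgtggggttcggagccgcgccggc

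Counted to its first base, CAGAC lay 147 bases upstream of the ID3 start, GTCTAGAC 12 bases upstream of the SMAD6 start and TGACGTCA 54 bases upstream of the SKIL start. The SKIL window also held GTCTG (107 bases upstream) and GGCGCC (190 bases upstream), which are left in lower case. CAGAC also occurred in ID4, in 2 of 5 SMAD3 windows and in 2 of 3 SMAD7 windows, and GGCGCC in TGFBI and 1 SMAD3 window. ID1 held none of the 4 motifs. A match is a stretch of letters and not a measured binding site.

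Per kilobase of gene, TGFBI had the highest mean level of the 9 over the 12 libraries (259 FPKM), followed by ID1 (119) and ID3 (89.0). SMAD3 (31.2) and ID2 (23.3) came next, then SMAD6 (16.0), SKIL (14.1) and SMAD7 (13.5), with ID4 far below. SMAD6, SKIL and SMAD7 overlapped library by library, so their order is not separated by the spread. The steepest range across libraries was that of SMAD6, whose highest library was 9.62 times its lowest, and the flattest was SMAD7, at 1.65 times. In bulk RNA, a lower level cannot be told apart from fewer cells with the transcript.

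**Figure D1:**
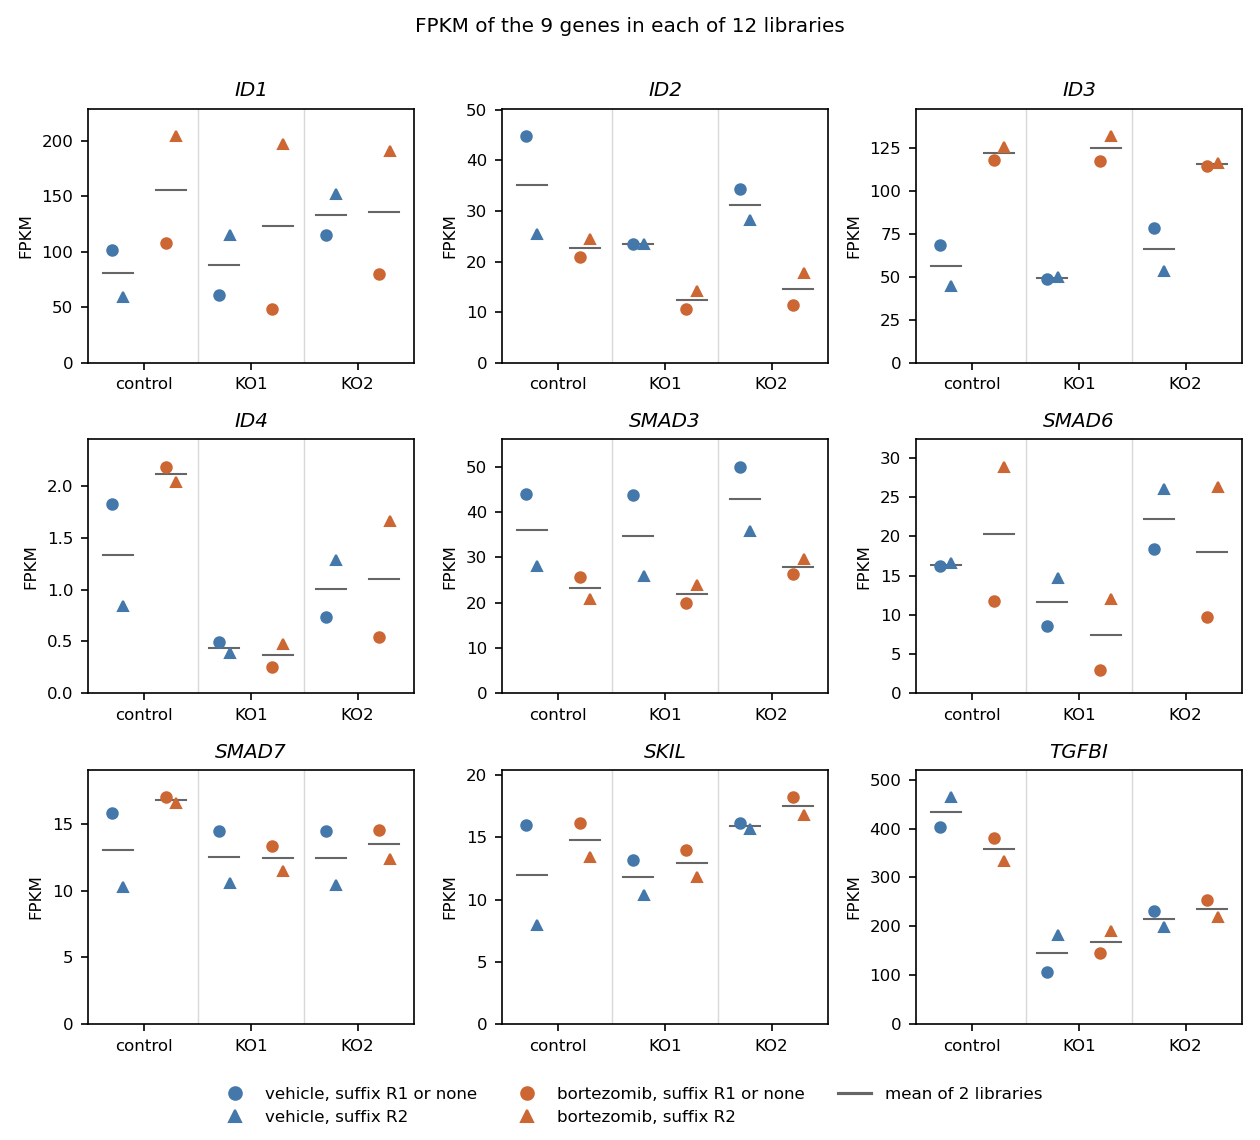
FPKM of each of the 9 genes (vertical axes, linear, from 0) in the 12 libraries by line, with vehicle in blue, bortezomib in orange, R2 libraries as triangles, the other libraries as circles and bars at the mean of 2 libraries. ID3 is at 115 FPKM or more in every bortezomib library and 78.6 or less in every vehicle library, and TGFBI is highest in the control line.

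The first question was how the genes responded to bortezomib. Averaged over the 3 lines, ID3 RNA rose and ID2 RNA fell, while the other 7 genes did not pass the threshold without the replicate term. These 2 calls stand against 11.6% of all 12194 tested genes called in that comparison (limma on log2(FPKM + 1), adjusted p under 0.05). With the title suffix as a replicate block, which pairs the libraries, 3 of the 9 were called (ID3 higher, ID2 and SMAD3 lower) against 54.9% of all genes. Thus 22.2% of the 9 were called without the block and 33.3% with it, above and below the share of all genes, and neither difference was tested. The median log2 fold change of the 9 was 0.13, against -0.01 for all genes, with 6 above 0 and 3 below.

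ID3 (ENSG00000117318, chromosome 1, 23557918 to 23559794, minus strand) was the ID gene with the most even response. Its vehicle levels were 68.3 (unnumbered) and 44.4 FPKM (R2) in the control line, 49.0 (R1) and 50.1 (R2) in KO1, and 78.6 (R1) and 53.4 (R2) in KO2. With bortezomib they were 118 and 126 in the control line, 118 and 132 in KO1, and 115 and 116 in KO2, in the same order. Every bortezomib library was higher than every vehicle library, and the 6 treated libraries spanned a narrower range than the 6 vehicle libraries. Paired by suffix, ID3 was 1.46 to 2.83 times its vehicle level in 6 of 6 pairs. How many of all genes separated the treatments, or moved in 1 direction in 6 of 6 pairs, was not counted. This limit also holds for the pair counts of the other genes below. Its mean log2 fold change was 1.09 (SE 0.23, limma adjusted p 0.0176; SE 0.13 and adjusted p 0.000117 with the replicate block). By line the value was 1.13 (control), 1.31 (KO1) and 0.83 (KO2). Limma's adjusted p was 0.281, 0.275 and 0.586 in the unblocked fit and 0.00492, 0.00309 and 0.0232 in the blocked one.

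The ID3 call without the block was lost when any of 6 single libraries was left out: either control bortezomib library, KO1 bortezomib R2, KO2 vehicle R2, or either KO2 bortezomib library (limma adjusted p 0.0501 to 0.0610). With the block it held in 12 of 12 such fits of the mean. In single lines with the block, the control call was lost without either R2 control library (log2 fold change 0.78 in both fits). In the block, leaving out 1 control library also takes its partner of the same suffix out of the bortezomib comparison. The 2 fits are thus 1 check, and the same holds below where either library of a control pair is left out. The KO2 call was lost without vehicle R2 (0.237) or either bortezomib library (0.0670 and 0.116).

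ID2 (ENSG00000115738, chromosome 2, 8678845 to 8684453, plus strand) moved the other way. ID2 is the family member best known for also binding the retinoblastoma protein. It was at 44.8 (unnumbered) and 25.4 FPKM (R2) in the control line in vehicle, and at 20.9 and 24.5 with bortezomib. In KO1 it went from 23.5 (R1) and 23.4 (R2) to 10.7 and 14.2. In KO2 it went from 34.2 (R1) and 28.3 (R2) to 11.5 and 17.7. In both knockout lines the treated libraries lay below the vehicle libraries, and also in the control line, where the R2 pair was nearly level. Over all 12 libraries the treatments overlapped, since control R2 with bortezomib was above both KO1 vehicle libraries. The mean log2 fold change was -0.83 (SE 0.22, limma adjusted p 0.0401; SE 0.15 and adjusted p 0.00142 with the replicate block), with ID2 lower in 6 of 6 pairs at 0.336 to 0.964 times vehicle. By line the value was -0.56 (control), -0.88 (KO1) and -1.07 (KO2). Limma's adjusted p was 0.666, 0.522 and 0.374 in the unblocked fit and 0.132, 0.0348 and 0.0175 in the blocked one. ID2-AS1 overlaps ID2 antisense. Whether counting used strand is not given in the sources used here, so their reads may not be separable.

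The ID2 call without the block was marginal. It was lost without each of 11 of the 12 libraries in turn, the exception being control vehicle R2 (limma adjusted p 0.0627 to 0.127), and with all genes kept (0.0509) or FPKM rescaled to a common sum (0.0585). With the block the mean held in 12 of 12 such fits. The KO1 call with the block was lost without any of the 4 KO1 libraries (0.0927 to 0.201), and the KO2 call without R1 in vehicle (0.177) or bortezomib (0.117).

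In each library the ratio of ID3 to ID2 gives their balance free of library scaling. It was 1.52 to 2.29 in the 6 vehicle libraries (median 1.99) and 5.13 to 11.0 in the 6 bortezomib libraries (median 7.93). The control line had the lowest treated ratios, 5.64 and 5.13, against 11.0 and 9.30 in KO1 and 9.96 and 6.57 in KO2. In vehicle the control line was also lowest, at 1.52 and 1.75. The pair was chosen after its values were seen, so no test is given. The shift was 1.98 on the log2 scale and 1.88 to 2.08 with any single library left out.

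**Figure D2:**
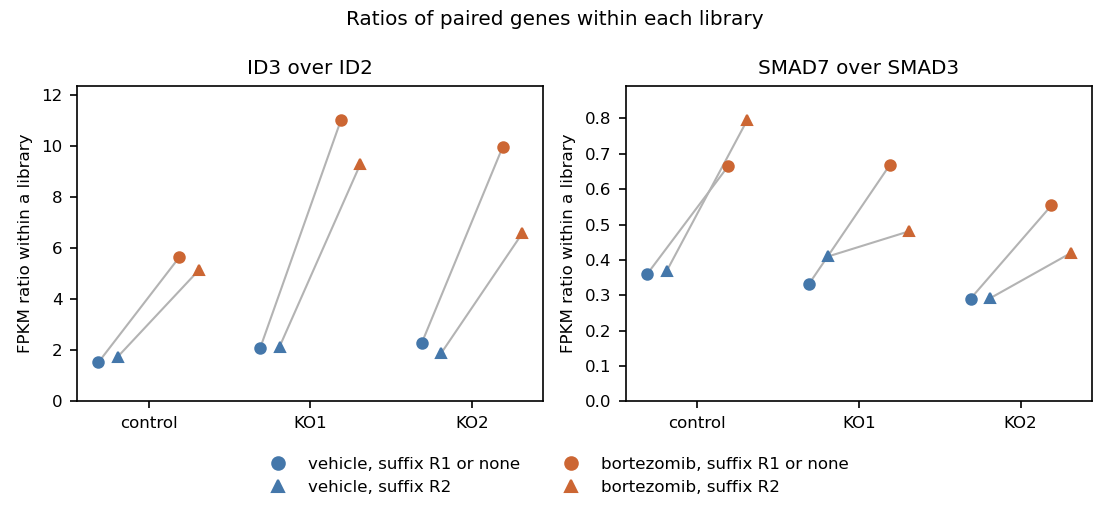
Ratio of FPKM between paired genes within each library (linear axes from 0) by line, with vehicle in blue, bortezomib in orange, R2 libraries as triangles and grey lines joining libraries of the same suffix. ID3 over ID2 is at most 2.29 in vehicle and at least 5.13 with bortezomib, and SMAD7 over SMAD3 is at most 0.410 and at least 0.419.

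ID1 (ENSG00000125968, chromosome 20, 31605283 to 31606515, plus strand), the family member most often used as a readout of BMP signalling, gave a response that differed between the suffix sets. In the control line it was at 102 (unnumbered) and 59.4 FPKM (R2) in vehicle and 108 and 204 with bortezomib. In KO1 it was at 61.4 (R1) and 115 (R2), then 48.7 and 197. In KO2 it was at 115 (R1) and 152 (R2), then 80.0 and 191. The 3 treated R2 libraries were the highest of all 12, and the treated R1 library of KO1 was the lowest. In R2, bortezomib libraries had 3.44 (control line), 1.71 (KO1) and 1.26 (KO2) times the vehicle level. In the other set the ratios were 1.06, 0.793 and 0.696, so the 2 knockout lines changed sign between sets. The mean log2 fold change of ID1 was 0.35 (SE 0.43, limma adjusted p 0.667; SE 0.24 and adjusted p 0.238 with the replicate block). It was called with the block only when 1 of the 2 unnumbered control libraries was left out (0.63, limma adjusted p 0.0409 and 0.0411).

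SMAD6 (ENSG00000137834, chromosome 15, 66702228 to 66782848, plus strand), which mainly restrains BMP signalling, also differed between the suffix sets. In the control line it was at 16.3 (unnumbered) and 16.6 FPKM (R2) in vehicle and 11.8 and 28.9 with bortezomib. In KO1 it went from 8.57 (R1) and 14.7 (R2) to 3.01 and 12, and in KO2 from 18.4 and 26.1 to 9.75 and 26.3. In the 3 pairs outside R2 it was lower with bortezomib (0.725, 0.351 and 0.529 times vehicle), and in the R2 pairs it was 1.74, 0.816 and 1.01 times vehicle. The mean log2 fold change was -0.34 (SE 0.38, limma adjusted p 0.636; SE 0.19 and adjusted p 0.155 with the replicate block). With the block it was called without either R2 control library (-0.54, limma adjusted p 0.0417 and 0.0414). RP11-321F6.2 overlaps SMAD6 on the same strand, and how shared reads were divided is not given in the sources used here.

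A test of the response in R2 minus the response in the other libraries, chosen after these values were seen, gave 1.02 for SMAD6 (SE 0.20, limma adjusted p 0.0793) and 1.21 for ID1 (SE 0.41, limma adjusted p 0.170). SMAD3 gave 0.65 (limma adjusted p 0.102) and ID2 0.75 (0.112). None of the 9 passed, and 0 of 12194 genes did, with 2410 at an unadjusted p under 0.05 by limma. With voom on recovered reads 418 genes passed, among them SMAD6 (limma adjusted p 0.00726), SMAD3 (0.0309), ID1 (0.0319) and ID2 (0.0353). The difference was above 0 for 8 of the 9 genes, TGFBI being the exception (-0.25), and for 62.9% of all genes, with a median of 0.10. The mitochondrial share was also higher in R2, and its part in the result was not tested. With mitochondrial genes left out the values of SMAD6 and ID1 were 1.04 and 1.22.

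**Figure D3:**
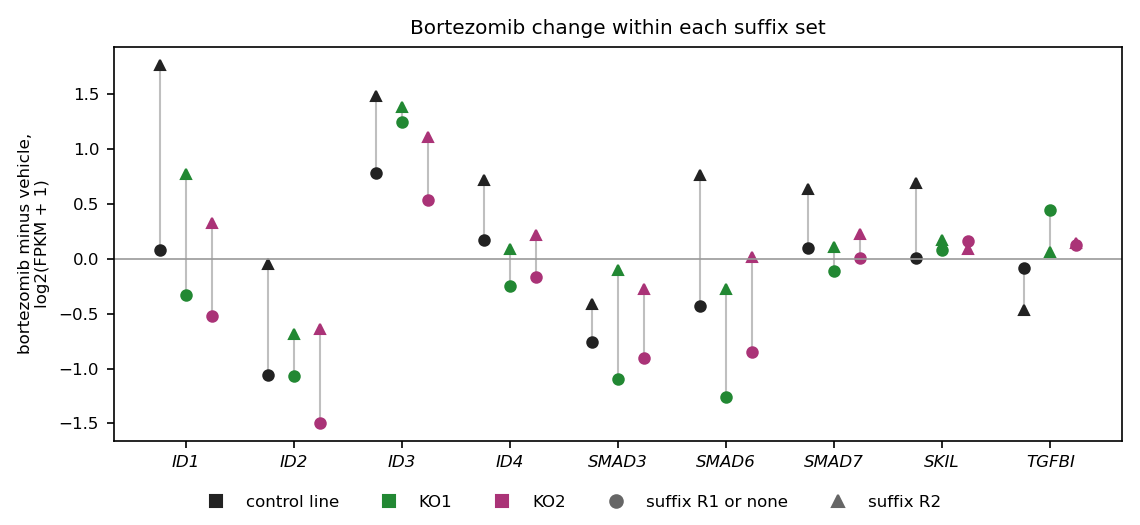
Bortezomib minus vehicle on the log2(FPKM + 1) scale for each gene (horizontal axis) within R2 libraries (triangles) and within the other libraries (circles), with lines by colour and a grey bar joining the 2 sets. ID1 and SMAD6 lie higher in R2 in all 3 lines, while ID3 is above 0 and ID2 below 0 in both sets of each line.

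ID4 (ENSG00000172201, chromosome 6, 19837386 to 19840684, plus strand) was close to the limit of testing, with 8 to 102 recovered reads per library. In the control line it was at 1.83 and 0.844 FPKM in vehicle and 2.18 and 2.04 with bortezomib. In KO1 it was at 0.492 (R1) and 0.391 (R2), then 0.258 and 0.475, and in KO2 at 0.733 and 1.28, then 0.545 and 1.66. The 4 KO1 libraries were below the 4 control libraries. Group means in vehicle and bortezomib were 1.34 and 2.11 in the control line, 0.441 and 0.367 in KO1, and 1.01 and 1.10 in KO2. ID4 thus reached the tested level mainly through the control line, which limits any reading of it as lower in KO lines. Neither fit called it in any comparison. For the mean of the KO lines against the control line in bortezomib the log2 fold change was -0.90 (SE 0.28, limma adjusted p 0.463; -0.57 and adjusted p 0.215 with the replicate block). It passed when the block put R1 and unnumbered libraries on a shared level (-0.90, limma adjusted p 0.0411). On the scale of voom, from recovered reads without the block, the value was -1.81, and it did not pass.

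SMAD3 (ENSG00000166949, chromosome 15, 67063763 to 67195195, plus strand) carries the TGF-beta signal to DNA. Its vehicle levels were 44.0 (unnumbered) and 28.1 FPKM (R2) in the control line, 43.8 (R1) and 25.8 (R2) in KO1, and 50.0 and 35.9 in KO2. With bortezomib they were 25.6 and 20.9, 20.04 and 23.9, and 26.3 and 29.6. Bortezomib libraries were lower than their vehicle partner in 6 of 6 pairs, at 0.457 to 0.583 times vehicle outside R2 and 0.743 to 0.927 times in R2. The treatments overlapped, with R2 vehicle libraries at 25.8 to 35.9. By line the value was -0.58 (control), -0.60 (KO1) and -0.59 (KO2). Leaving out 1 library at a time without the block moved these to between -0.90 and -0.27 (control), -0.97 and -0.23 (KO1), and -0.82 and -0.35 (KO2). For the mean of -0.59 the SE was 0.23 and the limma adjusted p 0.140 without the block. With the replicate block the SE was 0.14 and the adjusted p 0.00586, and the call held in 12 of 12 fits that left out 1 library. In single lines it did not pass with the block on log2(FPKM + 1) (limma adjusted p 0.0917, 0.0935 and 0.102). Voom on recovered reads with the block did call it in each line (limma adjusted p 0.0260, 0.0267 and 0.0290). RP11-342M21.2 overlaps SMAD3 on the opposite strand.

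SMAD7 (ENSG00000101665, chromosome 18, 48919853 to 48950711, minus strand), the general inhibitor that recruits ubiquitin ligases to the receptors, varied least. It was at 15.8 and 10.3 FPKM in the control line in vehicle and 17.0 and 16.6 with bortezomib. In the KO lines it stayed between 10.5 and 14.6 FPKM in all 8 libraries. Its mean log2 fold change was 0.16 (SE 0.19, limma adjusted p 0.660; SE 0.09 and adjusted p 0.165 with the replicate block), with 5 of 6 pairs higher. It passed with the block only without either unnumbered control library (0.25, limma adjusted p 0.0493 in both). The SMAD7 to SMAD3 ratio was 0.290 to 0.410 in vehicle (median 0.345) and 0.419 to 0.796 with bortezomib (median 0.609). This pair too was chosen after its values were seen. The KO2 R2 library with bortezomib (0.419) lay just above the highest vehicle library (KO1 R2, 0.410).

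SKIL (ENSG00000136603, chromosome 3, 170357678 to 170396835, plus strand) was at 16.0 and 7.93 FPKM in the control line in vehicle and 16.1 and 13.4 with bortezomib. In KO1 it was at 13.2 (R1) and 10.4 (R2), then 14.0 and 11.8, and in KO2 at 16.2 and 15.6, then 18.2 and 16.8. Each treated library was above its partner, but by 1.01 to 1.69 times, and the treatments overlapped. The mean log2 fold change was 0.20 (SE 0.21, limma adjusted p 0.6002; SE 0.10 and adjusted p 0.117 with the replicate block). It passed with the block only without either unnumbered control library (0.31, limma adjusted p 0.0211 and 0.0212).

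By single line, 0 of the 9 genes were called without the block in any line, where 0.467% of all genes were called for the control line, 0.238% for KO1 and 0.32% for KO2. At an unadjusted p under 0.05 by limma there were 1, 2 and 1 of the 9, and voom on recovered reads without the block also called 0. With the replicate block, ID3 was called in the control line (32.4% of all genes called), and ID3 and ID2 in both KO1 (27.7%) and KO2 (27%). The pairing that the block uses comes from the title suffixes. As a check in the data, R2 minus its partner was correlated across genes in all 15 pairs of groups (median r 0.81).

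**Figure D4:**
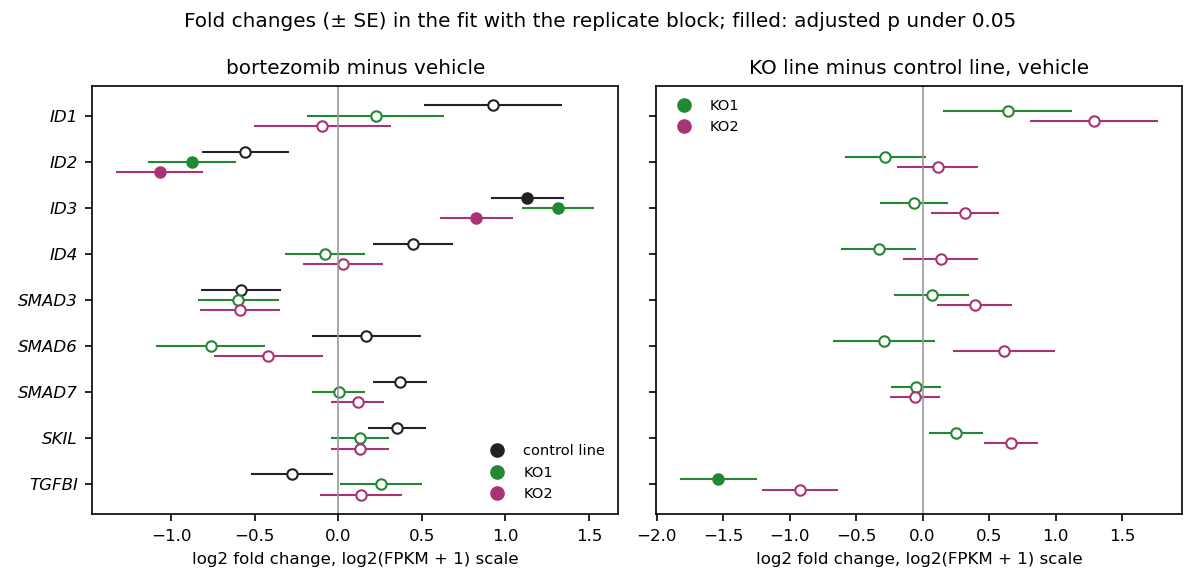
Log2 fold changes on the log2(FPKM + 1) scale with their SE in the fit with the replicate block, for bortezomib minus vehicle by line (left) and for each KO line minus the control line in vehicle (right), with filled points where the limma adjusted p is under 0.05. Filled points are ID3 in 3 lines and ID2 in 2 on the left, and TGFBI in KO1 on the right.

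The second question was what NFE2L1 knockout changed without the inhibitor. TGFBI (ENSG00000120708, chromosome 5, 136028895 to 136063818, plus strand) encodes a secreted, integrin-binding protein of the extracellular matrix. In the control line it was at 403 (unnumbered) and 464 FPKM (R2) in vehicle and 380 and 335 with bortezomib. In KO1 it was at 107 (R1) and 183 (R2), then 146 and 191, and in KO2 at 232 and 199, then 253 and 219. The 4 control libraries (335 to 464) did not overlap the 8 KO libraries (107 to 253). How many of all genes separated the lines in this way was not counted. Matched by suffix, and R1 with the unnumbered library, the KO lines had 0.265 to 0.575 times the control level in vehicle and 0.384 to 0.666 times in bortezomib.

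In vehicle the log2 fold change of TGFBI was -1.62 in KO1 (SE 0.45, limma adjusted p 0.431) and -1.01 in KO2 (SE 0.45, limma adjusted p 1). With the replicate block it was -1.54 (SE 0.29, adjusted p 0.0165) and -0.92 (SE 0.29, adjusted p 0.117). For the mean of both lines it was -1.32 without the block (SE 0.39, limma adjusted p 0.482) and -1.23 with it (SE 0.26, adjusted p 0.0269). In this block the lines are joined mainly by their R2 libraries, as no control library is titled R1. When the unnumbered control libraries shared a level with R1, KO2 passed too (limma adjusted p 0.0431). The KO1 call was lost without the R2 control vehicle library (-1.25, limma adjusted p 0.344), and that of the mean without this library (0.557) or without KO2 vehicle R2 (0.155). KO2 passed with the block when either KO1 vehicle library was left out (0.0440 and 0.0431). There is 1 control line, so the knockout and any other property of a line cannot be told apart.

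TGFBI was the only one of the 9 called in a comparison of KO with control lines in these 2 fits, and only with the block. Without it 0 of the 9 were called in KO1 (0.213% of all genes), KO2 (0.23%) or their mean (0.344%) in vehicle, or in their mean in bortezomib (0.164%). At an unadjusted p under 0.05 by limma there were 1, 0, 1 and 1 of the 9, and voom without the block called 0. With the replicate block 1 of 9 was called in KO1 (5.95% of all genes), 0 in KO2 (4.91%), 1 in the mean in vehicle (6.18%) and 0 in the mean in bortezomib (7.66%). These comparisons share the control libraries.

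None of the other 8 genes passed in these comparisons in either fit. In bortezomib ID2 was lower in the KO lines in 4 of 4 matched comparisons, at 0.510 to 0.723 times the control level, and its log2 fold change was -0.73 (SE 0.33, limma adjusted p 0.896; -0.50 and adjusted p 0.316 with the replicate block). SMAD7 and SMAD6 were also lower in 4 of 4, at 0.693 to 0.857 and 0.255 to 0.910 times. Their log2 fold changes were -0.36 (limma adjusted p 1; 0.233 with the block) and -0.82 (1; 0.335 with the block). ID1 and ID4 were lower in 4 of 4 as well, at 0.452 to 0.964 and 0.118 to 0.815 times. The fitted value of ID1 turned from -0.43 to 0.10 with the block (limma adjusted p 1 and 0.913). ID4 reached the tested level mainly through the control line, so its lower KO levels are not read as a result. Each control library served for both KO lines, so the 4 comparisons of a gene are not independent. How many of all genes were lower in 4 of 4 was not counted. ID3 was the most even gene across lines in bortezomib, at 0.926 to 1.05 times the control level. SKIL in KO2 in vehicle was 0.46 above the control line (limma adjusted p 1) and 0.66 with the replicate block (adjusted p 0.111).

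The third question was whether the bortezomib response differed between KO and control lines. None of the 9 genes was called in this interaction, in which 0% of all genes were called by limma (115 of 12194 at an unadjusted p under 0.05, and none of the 9). The replicate block also called 0 genes (1305 at an unadjusted p under 0.05), and voom on recovered reads with the block called 102 genes and 0 of the 9. The interaction was below 0 for 8 of the 9, from -0.01 for SMAD3 to -0.86 for ID1, and 0.47 for TGFBI (SE 0.55, limma adjusted p 1; SE 0.30 and adjusted p 0.631 with the replicate block). The median of the 9 was -0.31, against 0.007 for all genes, and all these values share the control libraries. Their sign does not show that the responses differed.

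The rest of the pathway gave context, over 85 listed genes of which 68 were tested. For bortezomib averaged over the lines, 10 of the 68 were called without the block (5 higher and 5 lower), where 11.6% of all genes were, and 39 with it (20 and 19), where 54.9% of all genes were. These counts include the 9 genes, and the median log2 fold change of the 68 was 0.10. ID3 and ID2 were thus 2 of the 10. The counts of the smaller lists that follow are read against the same shares of all genes, and no list was tested as a set. Those shares join both directions, and shares by direction are not given here.

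Among ligands, 0 of 7 tested were called without the block, and with it BMP4 was higher and GDF11, INHBB, TGFB1 and TGFB2 were lower. Latency proteins and extracellular antagonists had 0 higher and 7 of 9 lower with the block (median -0.56; 54.9% of all genes called in either direction), and 2 lower without it (11.6%). These 2 were BMPER (-1.19, limma adjusted p 0.00674), a secreted BMP modulator, and FST (-0.92, limma adjusted p 0.0342), the activin-binding follistatin. Of 11 receptors and co-receptors, TGFBR2, the type II receptor that binds TGF-beta, was lower without the block. It went from 31.2 and 56.8 to 10.2 and 13.7 FPKM in the control line, from 50.3 and 87.1 to 18.7 and 21.9 in KO1, and from 57.0 and 104 to 22.3 and 31.9 in KO2. All treated libraries except that of KO2 R2 (31.9) were below every vehicle library, and the log2 fold change was -1.64 (SE 0.28, limma adjusted p 0.00594). With the block ACVR1 was higher and BMPR1B lower as well.

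Of 5 signal-carrying SMADs tested, SMAD4 and SMAD5 were higher and SMAD3 lower with the block, and none was called without it. Among 6 inhibitory SMADs and corepressors, TGIF1 was higher and TGIF2 lower with the block only. The ubiquitin ligases and deubiquitinases that act on SMADs had 7 of 9 higher and 0 lower with the block (median 0.36; 54.9% of all genes called in either direction), and 0 called without it. SMURF1, NEDD4L, WWP1, RNF111, TRIM33, USP11 and USP15 were the 7.

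Of 14 tested TGF-beta target genes, CDKN1A, COL1A1 and CTGF rose without the block and THBS1 fell. CDKN1A, which encodes the cell cycle inhibitor p21 and is also a p53 target, went up by 2.25 (SE 0.34, limma adjusted p 0.00355), and COL1A1, a fibrillar collagen chain that is also on the fibroblast list, by 1.77 (limma adjusted p 0.00623). CTGF, a matricellular protein, went up by 0.89 (limma adjusted p 0.0403), and THBS1, which activates latent TGF-beta, fell by 1.19 (limma adjusted p 0.0141). With the block SNAI2 was also higher and KLF10, LTBP2 and TIMP1 lower, so 4 of the 14 were called in each direction, where 54.9% of all genes were called. TGFBI was level in this comparison (0.04, limma adjusted p 0.950; 0.841 with the replicate block).

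Among 9 tested BMP targets, ID3 and MSX1 rose and ID2 fell without the block. MSX1, a homeobox repressor, was at 0.711 to 3.5 FPKM in vehicle and 3.65 to 11.1 with bortezomib (1.52, SE 0.32, limma adjusted p 0.0168), and MSX2 joined them with the block. ID1, ID4, SMAD6 and SMAD7 of this list were called in neither fit. Of the E-proteins that ID proteins bind, TCF12 was higher with the block.

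For the mean of both KO lines in vehicle, 0 of the 68 were called without the block (0.344% of all genes) and 10 with it (6.18%), 4 higher and 6 lower. TGFBI was lower in that mean with the block, as were the TGF-beta targets CTGF, LTBP2 and PMEPA1, while in KO2 alone FN1 of that list was higher. BMPER was also lower in that mean, and BMP4, INHBB and LTBP3 were higher. With the block the ligand BMP4 was higher in KO1 and KO2 in vehicle as well, and in the KO mean in bortezomib. INHBB, an activin and inhibin chain, was at 3.52 and 16.4 FPKM in the control line, 19.0 and 61.3 in KO1 and 19.3 and 49.0 in KO2. With the block its log2 fold change was 1.85 (limma adjusted p 0.00111) and 1.70 (0.00192). None of the 9 tested BMP targets was called in either fit.

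Genes most like each of the 9 were sought by Pearson's r over the 6 group means of log2(FPKM + 1) among the 12193 other tested genes, as a description without a test. With 6 points and so many genes, values near 1 are found for any gene. ID3 was closest to ATG4D (0.9985) and DGCR14 (0.998), and ID2 to GALM (0.996) and UQCC3 (0.992). ID1 was closest to RNF217 (0.995) and SNORA9 (0.992), and ID4 to DPF1 and CCDC150 (0.996 each). SMAD3 was closest to RBM47 and RAB8A (0.993 each), SMAD6 to ZFX (0.997) and PRKCQ-AS1 (0.987), and SMAD7 to EXOC8 (0.998) and TRMT11 (0.994). SKIL was closest to PMF1 (0.993) and MCUR1 (0.992), and TGFBI to NNMT (0.991) and IGFBP3 (0.990). No gene of the 9 was among the nearest of another, the highest r between 2 of them being 0.860 for ID4 and TGFBI and the lowest -0.840 for ID3 and SMAD3.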

How the data were processed

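RNA was measured by sequencing in 12 libraries (6 groups of 2). Per the labels' protocols, cDNA was primed with random hexamers. The submitters' processing notes name CASAVA, STAR 2.5, HTSeq 0.6.1, DESeq2 and hg19, without saying which step made the table. The authors deposited FPKM values and a length for 58676 genes. All IDs were in GENCODE release 29 (GRCh38), where 95.2% have the same position, so coordinates are the table's own and read as GRCh38, and SMAD7 is among the genes whose bounds differ. FPKM times length gave whole reads for 100% of values in each library (within 0.05 of a whole number), which gave the depth of 13211608 to 23819258 reads.

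Groups came from the labels. The 12194 genes averaging 1 FPKM or more were fitted by limma 3.58.1 under R 4.3.3 (functions lmFit, contrasts.fit and eBayes with a trend) on log2(FPKM + 1), a scale that understates changes of low genes. All 12 libraries entered 1 fit without a replicate term, and genes with a Benjamini-Hochberg adjusted p under 0.05 over all genes were called. The title suffix was then used as a block. R2 minus its partner was correlated between all 15 pairs of groups (r 0.70 to 0.89, median 0.81), so blocked values are printed where they change a call. Alternatives were a pseudocount of 0.1, no filter, rescaling to a common sum, a block in which unnumbered libraries share a level with R1, and each library left out. Voom on the recovered reads, leaving out mitochondrial genes, and the gene ratios were added after seeing the data. The fit was tested on simulated data.

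All 9 genes are named. Pathway genes are given with values where called without the block, or with it in every line or in both KO lines with a log2 fold change of at least 1. Other called list members that are mentioned are given by name only. A result for 1 list member is not reported here. The members and lists were chosen with earlier results of these data known. Promoters are from RefSeq (GRCh38.p14). Python 3.11.15 with pandas 2.3.3 read the table.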

Additional observations from a re-analysis of the deposited data

Results flagged for a closer look

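TGFBI stood out because its control libraries were lower with bortezomib in both pairs while its KO libraries were higher in all 4. The difference between the KO and control responses was 0.47 on the log2 scale. It did not pass the test of the interaction (limma adjusted p 1, and 0.631 with the replicate block).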

How the results depend on the processing

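The planned count-model test, with and without the block, was not run, and voom on recovered reads stands in for it. The ID3 rise over the 3 lines was called in 9 of 9 alternatives that kept every library, and the ID2 fall in 7 of 9, the exceptions being no filter and a common sum. With either of these 2 settings 1 of the 9 genes was called for the mean of 3 lines.

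With the replicate block, and alike with mitochondrial genes left out and the block, bortezomib called 1 gene in the control line and 2 in each KO line, and in vehicle the calls were 1 for KO1 and 1 for the KO mean. The block changed no call of the 9 beyond those given above. With unnumbered libraries sharing a level with R1 in the block these were 1, 2, 2, 1 and 1, with 1 for KO2 in vehicle and 2 for the KO mean in bortezomib. These 2 were TGFBI and ID4, and ID4 reached the tested level mainly through the control line. Voom with the block gave 3, 4, 3, 1 and 1, with 3 for KO2 in vehicle and 1 for the mean in bortezomib. The last was TGFBI (limma adjusted p 0.0243), which was also among the 3 for KO2 (limma adjusted p 0.0168). For bortezomib, voom with the block called ID3 and SMAD3 in the control line and ID2, ID3 and SMAD3 in KO1 and in KO2. The rest in the control line and KO1, and the others for KO2 in vehicle, were not followed by name. The shares of all genes called in these settings are not given here. Leaving out 1 library at a time, without and with the block, gave 0 to 3 genes for bortezomib in the control line, 0 to 2 in each KO line, and 0 to 6 for the mean of 3 lines. It gave 0 to 1 for KO1, KO2 and the KO mean in vehicle, and 0 to 1 for the KO mean in bortezomib. The interaction called 0 of the 9 in every setting. Fold changes in leave-one-out fits were followed for chosen comparisons of each gene only, and for no interaction. Among these the direction turned for TGFBI with bortezomib over 3 lines (-0.0932 to 0.167) and for ID2 in the KO lines in bortezomib (-0.873 to 0.260). The cause was not tested.

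With 2 libraries in a group, single-line tests without the block have little precision. ID4 is limited by depth, at 8 to 102 reads.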
